A study of Mus musculus with 23 samples.

Results

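RNA of macrophage and other myeloid genes was present in flow sorted mouse lung tumor cells, and it was followed through 32 genes chosen by name, for their known cell type, from the 35455 and 35454 genes of the deposited tables. All 32 were listed in both tables, and all 32 passed the filter on low values (a mean normalized count of at least 10) in both, though C1qa passed in the PI3K table only with BRAF/PI3Ka 12 week replicate 1 and in the PGC1a table only with BRAF/PGC1aHet replicate 5. A few members reached that mean in only 1 of the groups compared, the one in which they were higher, and their fold changes there are descriptions with no test: Fcgr1 over all weeks, C1qa at 12 against 6 weeks, Marco and Fcgr1 at 6 against 2 weeks, and Fabp4 in the PGC1a comparison. Marco, Ms4a7, Fcgr1 and Ncf4 did so in single weeks. The 32 fall into 7 groups by their known role: 4 alveolar macrophage genes (Marco, Chil3, Ear2 and Fabp4), 5 C1q-type macrophage genes (C1qa, C1qb, C1qc, Ms4a7 and Trem2), 7 genes shared by macrophages (Mrc1, Adgre1, Cd68, Csf1r, Mertk, Cd14 and Mpeg1), 4 Fc receptors and their signaling adaptors (Fcgr1, Fcgr3, Fcer1g and Tyrobp), 4 genes used as neutrophil markers (Csf3r, S100a8, S100a9 and Clec4e), 3 subunits of the phagocyte NADPH oxidase (Cybb, Ncf1 and Ncf4), and 5 genes of leukocytes or myeloid cells in general (Ptprc, Spi1, Laptm5, Clec7a and Ctss).

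RNA was measured in 23 libraries of tdTomato+ cells sorted from the lungs of individual mice, 3 to 4 months old and of mixed genetic background. All mice carried 1 Braf CAT allele (CAT/+), which after Cre recombination expresses BRAF V600E together with the red protein tdTomato, and tumors were started by an inhaled adenovirus whose Cre is driven by the promoter of Sftpc, an alveolar type 2 (AT2) gene. One table held tumors of CAT/+ mice (called BRAF) at 2, 6 and 12 weeks post-initiation (p.i.; 1, 3 and 2 libraries) and of CAT/+; HR/+ mice (called BRAF/PI3Ka), which also switch on PI3Ka H1047R from the Pik3ca locus (2, 4 and 2 libraries). The other held CAT/+ tumors at 12 weeks p.i. that lost 1 (PGC1a mutant/+, called BRAF/PGC1aHet, 5 libraries) or both copies (PGC1a mutant/mutant, called BRAF/PGC1aNull, 4 libraries) of floxed Ppargc1a, which encodes the coactivator PGC1a. Mice taken at 12 weeks had received less virus than those taken at 2 and 6 weeks, so week and viral dose cannot be told apart between 6 and 12 weeks. The sort gated on tdTomato against green autofluorescence, and the methods describe no antibody against leukocytes.

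Alveolar macrophages live on the air side of the alveolus, are kept there by GM-CSF from AT2 cells, and clear surfactant and inhaled particles, whereas interstitial and monocyte-derived macrophages sit in the tissue and are known for making the complement component C1q. Neutrophils are short-lived blood cells loaded with S100A8 and S100A9. Myeloid identity in general depends on the transcription factor PU.1, encoded by Spi1, which binds a purine-rich core, GAGGAAG, at the promoters of many myeloid genes.

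The promoters of 2 alveolar genes and 2 C1q chains are shown because these groups are set side by side below. Each is the 250 bases before the transcription start of RefSeq (GRCm38.p6), written in the direction of transcription, with GAGGAAG or its reverse complement CTTCCTC in capitals.
Marco, chr1:120505025-120505274, minus strand: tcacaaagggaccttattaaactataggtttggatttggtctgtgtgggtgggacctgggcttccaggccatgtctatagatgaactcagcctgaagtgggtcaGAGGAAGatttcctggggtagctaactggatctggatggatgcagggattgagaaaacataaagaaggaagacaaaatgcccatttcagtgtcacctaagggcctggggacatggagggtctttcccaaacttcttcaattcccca
Chil3, chr3:106167565-106167814, minus strand: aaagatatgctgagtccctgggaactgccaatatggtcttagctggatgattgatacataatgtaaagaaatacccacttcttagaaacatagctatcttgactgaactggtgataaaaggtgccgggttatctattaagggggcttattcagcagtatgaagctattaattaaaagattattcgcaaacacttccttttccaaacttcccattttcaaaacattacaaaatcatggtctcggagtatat
C1qb, chr4:136886201-136886450, minus strand: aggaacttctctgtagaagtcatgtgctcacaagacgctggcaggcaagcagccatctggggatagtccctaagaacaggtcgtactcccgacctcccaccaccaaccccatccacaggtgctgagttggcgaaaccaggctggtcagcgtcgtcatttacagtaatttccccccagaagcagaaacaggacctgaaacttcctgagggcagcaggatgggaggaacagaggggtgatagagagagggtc
C1qc, chr4:136892915-136893164, minus strand: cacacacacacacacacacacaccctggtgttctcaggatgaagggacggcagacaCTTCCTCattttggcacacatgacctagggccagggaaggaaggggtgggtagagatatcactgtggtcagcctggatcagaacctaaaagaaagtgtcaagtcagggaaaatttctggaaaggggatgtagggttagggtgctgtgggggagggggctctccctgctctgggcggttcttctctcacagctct

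The core began 146 bases before the start of Marco and 194 before that of C1qc, and these letters were not present in the windows of Chil3, C1qb or Ear2. Promoters were matched for 24 of the 32 genes. The core, on either strand, was present in 9 of the 24 (37.5%: Marco, C1qc, Trem2, Mrc1, Fcgr1, Fcgr3, Csf3r, S100a8 and Laptm5) and in 12.0% of the promoters of 27025 genes. The C/EBP motif TTGCNNAA, on either strand, was present in 5 of the 24 (20.8%: Ear2, Cd68, Fcgr3, S100a9 and Clec4e) and in 10.8% of all promoters. The TATA box letters TATAAA were present in 5 of the 24 (20.8%) and in 14.3% of all promoters. The 3 C1q genes lie next to each other on chromosome 4 of GRCm38 (C1qb at chr4:136880129-136886187, C1qc at chr4:136889804-136893065 and C1qa at chr4:136895917-136898803, all on the minus strand), whereas Marco (chr1:120474538-120505024), Chil3 (chr3:106147554-106167564), Fabp4 (chr3:10204088-10208576) and Ear2 (chr14:44102654-44103534) are apart. These gene positions are those of GENCODE, whose start of C1qc lies upstream of the RefSeq start, so 151 of the 250 bases shown for C1qc lie inside the gene as GENCODE places it.

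The values are normalized counts, the authors' Salmon read estimates divided by a library factor. They summed to between 16433820 and 20287296 per library in the 14 libraries of the PI3K table and to between 7115753 and 9159567 in the 9 libraries of the PGC1a table, and the 32 genes together took 0.0251% to 0.418% and 0.0216% to 0.278% of these sums. The number of reads is unknown, so precision is given by the spread between libraries. Log2 fold changes are on the scale of log2(normalized count + 1), which understates changes of low genes. They come from limma (two-sided) with their standard error (SE), and a gene was called at a Benjamini-Hochberg adjusted p under 0.05 over all genes tested. In these mixed samples, more cells of a type and more RNA per cell cannot be told apart.

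A pair of libraries went against their labels. In the PI3K table, BRAF/PI3Ka 12 week replicate 1 is labelled male but had a normalized count of the Y-linked gene Kdm5d of 502, where the labelled females had 234 to 508, and replicate 2 is labelled female but had 4728, where the other labelled males had 2090 to 4677. The values of Pik3ca, whose mutant allele was switched on at its own locus, were lowest in the same replicate 1, at 1376, against 1949 to 5933 in the other 13 libraries. The main medians and levels, and some of the single fold changes that it moved, are therefore also given without the library labelled BRAF/PI3Ka 12 week replicate 1. Between BRAF/PI3Ka and BRAF over all weeks, the log2 fold change of C1qc went from 1.87 to 1.51 without it. That of Fabp4 went from 1.38 to 0.97 and that of C1qb from 0.96 to 0.64. C1qa then missed the filter, so 31 of the 32 were tested. Ppargc1a was 75.8, 170.2, 155, 199.5 and 561 in the BRAF/PGC1aHet libraries and 72.7, 38.0, 51.6 and 124 in the BRAF/PGC1aNull libraries. The ranges overlapped, with 3 of the 4 BRAF/PGC1aNull values below every BRAF/PGC1aHet value (log2 fold change -1.51, limma adjusted p = 0.98).

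Values were divided by kilobases of annotated exon, which allows only a rough comparison of genes. The highest of the 32 in the PI3K table by the median over libraries were Ear2 (1585 per kilobase), Chil3 (1407) and Ctss (489). They encode an eosinophil-associated ribonuclease, a chitinase-like protein of alveolar macrophages and the lysosomal protease cathepsin S. In the PGC1a table, Chil3 (787) was first and Ctss (316) next. Marco (16.6) and C1qa (7.07) were among the lowest in the PI3K table, and C1qb (39.7) and C1qc (17.5) were in the lower part. Fabp4 had 11.3, but the exon length used for it, 4489 bases, is the whole span of the gene. Its value is therefore too low and its place is not known. Chil3 shared 41.5% of its 31-base words with other genes, most with Chil4, and Ear2 shared 60.5%, most with Ear1, so how reads were divided within each of these pairs is uncertain. Fcgr3 shared 13.4%, most with Fcgr2b, and Csf3r 23.1%. None of the other 28 genes shared more than 1.22%.

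No gene of the 32 passed the adjusted threshold in any comparison. Between BRAF/PI3Ka and BRAF tumors over all weeks (8 and 6 libraries), limma called 0 of the 32, where 0.0228% of the 17558 genes tested were called. Most BRAF libraries are labelled female, among them both of 12 weeks, and most BRAF/PI3Ka libraries male. Sex is therefore not balanced between the genotypes in this comparison. At an unadjusted p under 0.05, 3 of the 32 were higher in BRAF/PI3Ka (C1qc, Mrc1 and Mertk) and 0 lower, where 3.46% of all genes were higher. Without BRAF/PI3Ka 12 week replicate 1, C1qc and Mertk stayed under that limit and Mrc1 did not (limma unadjusted p = 0.066). Ncf4 was then lower under it (limma unadjusted p = 0.046). The fold change was above 0 for 28 of the 32, with a median of 0.67 on the log2 scale, where 51.8% of all genes were above 0 with a median of 0.02. Genes of other cells were counted in the same comparison. Endothelial genes were above 0 in 12 of 12 (median 0.90, 2 under the unadjusted limit), fibroblast genes in 7 of 10 (median 0.63, 2 under it) and erythroid genes in 0 of 6 (median -0.93, 2 under it), and none was called. The summed endothelial count was 16399 to 157787 in BRAF and 26255 to 295813 in BRAF/PI3Ka. The part of these cells in the values of the 32 was not tested. Every BRAF/PI3Ka library was above every BRAF library for 0 of the 32 (0.0854% of all genes) and below every BRAF library for 0 (0.125%). Both alveolar and C1q-type genes lay on the higher side, 4 of 4 with a median of 0.99 and 5 of 5 with a median of 0.96. Without BRAF/PI3Ka 12 week replicate 1 the median of the 31 tested was 0.27, with 24 above 0, and the medians were 0.67 for the alveolar genes and 0.69 for the other 4 C1q-type genes. The alveolar median was 0.56 without the BRAF library of 2 weeks. The unadjusted count was 1 without BRAF 6 week replicate 1 and 5 without BRAF/PI3Ka 2 week replicate 2. The fit has no term for week, and with week as a factor 9 of the 32 were under the unadjusted limit, 29 were above 0 and the median was 0.86, with 0 called. The 3.46% of all genes belongs to the fit without week. No such share is given for the fit with week, so the 9 have no background.

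Among the alveolar genes, Chil3 was 287 in the BRAF library of 2 weeks, 1512, 1604 and 2285 in those of 6 weeks, and 3667 and 4252 in those of 12 weeks. In BRAF/PI3Ka it was 6974 and 597 at 2 weeks, 2029, 2308, 4172 and 1345 at 6 weeks, and 21059 and 4279.6 at 12 weeks. The ranges overlapped, and 1 BRAF/PI3Ka library of 12 weeks stood above all others (log2 fold change over all weeks 0.89). It was 0.49 without that library and 0.37 without the BRAF library of 2 weeks. Chil4, which shares sequence with Chil3, was 812 in the BRAF library of 2 weeks, above Chil3 there, and between 1.74 and 44.2 in the other 13 libraries. In that 1 library the low Chil3 value went with a high Chil4 value.

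Ear2 was 147 in the BRAF library of 2 weeks, 149, 305 and 1246 at 6 weeks, and 1572 and 1399.6 at 12 weeks. Its BRAF/PI3Ka values were 2220.0 and 179.7 at 2 weeks, 610.0, 1033, 1628 and 779 at 6 weeks, and 3932 and 1715 at 12 weeks. Both genotypes had low and high libraries, and the lowest BRAF/PI3Ka value, at 2 weeks, was above 2 BRAF values only (log2 fold change 1.10).

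Fabp4, a fatty acid binding protein of alveolar macrophages that endothelial cells and adipocytes also make, was 12.5 in BRAF at 2 weeks, 0.607, 19.8 and 22.5 at 6 weeks, and 159 and 63.1 at 12 weeks. The BRAF/PI3Ka libraries gave 69.3 and 5.33 at 2 weeks, 102, 25.7, 74.5 and 38.4 at 6 weeks, and 402 and 71.9 at 12 weeks. At 6 weeks every BRAF/PI3Ka library was above every BRAF library, while at 2 and 12 weeks the genotypes overlapped (log2 fold change over all weeks 1.38, SE 0.95, and 0.62 without BRAF 6 week replicate 1). Marco, a scavenger receptor for unopsonized particles, was 0 in BRAF at 2 weeks, 54.7, 13.7 and 78.2 at 6 weeks, and 26.8 and 28.8 at 12 weeks. In BRAF/PI3Ka it was 26.4 and 2.38 at 2 weeks, 35.1, 39.3, 39.97 and 13.5 at 6 weeks, and 127 and 46.0 at 12 weeks. The genotypes overlapped at 6 weeks, where the highest values were in BRAF, and did not at 12 weeks (log2 fold change over all weeks 0.57, and 0.26 without BRAF/PI3Ka 12 week replicate 1).

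C1qc encodes 1 of the 3 chains of C1q, which opens the classical complement pathway. It was 10.5 in BRAF at 2 weeks, 8.23, 31.6 and 11.7 at 6 weeks, and 4.34 and 53.3 at 12 weeks. Its BRAF/PI3Ka values were 116 and 27.3 at 2 weeks, 45.7, 38.9, 18.1 and 35.8 at 6 weeks, and 327 and 66.0 at 12 weeks. The genotypes overlapped over all weeks but the median library was higher in BRAF/PI3Ka. C1qc had the highest fold change of the 32 in this comparison (log2 fold change 1.87, 95% interval 0.50 to 3.24, limma unadjusted p = 0.0105, adjusted p = 0.536), and an exact permutation test over the 3003 splits of these libraries gave an unadjusted two-sided p of 0.0170 (0.0175 with labels exchanged only within weeks).

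C1qb was 26.6 in BRAF at 2 weeks, 21.7, 23.2 and 8.56 at 6 weeks, and 90.3 and 86.7 at 12 weeks. The BRAF/PI3Ka libraries gave 148 and 55.6 at 2 weeks, 19.3, 34.3, 33.1 and 52.0 at 6 weeks, and 290.4 and 76.7 at 12 weeks. In both genotypes the libraries of 6 weeks were the low ones. C1qa was 0 in BRAF at 2 weeks, 7.10, 0 and 4.24 at 6 weeks, and 31.4 and 19.9 at 12 weeks. In BRAF/PI3Ka it was 2.20 and 16.02 at 2 weeks, 0, 7.59, 0.998 and 17.4 at 6 weeks, and 144 and 20.3 at 12 weeks. The genotypes overlapped for both chains, with log2 fold changes over all weeks of 0.96 for C1qb (0.61 without BRAF 6 week replicate 3) and 0.74 for C1qa.

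Trem2, a lipid receptor of macrophages, was 33.3 in BRAF at 2 weeks, 14.4, 46.8 and 81.8 at 6 weeks, and 53.4 and 35.7 at 12 weeks. Its BRAF/PI3Ka values were 44.4 and 49.1 at 2 weeks, 33.3, 32.4, 36.0 and 112 at 6 weeks, and 319.6 and 56.7 at 12 weeks. Here too the genotypes overlapped, and 1 library of 12 weeks stood above the rest (log2 fold change 0.61, and 0.27 without it).

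**Figure D1:**
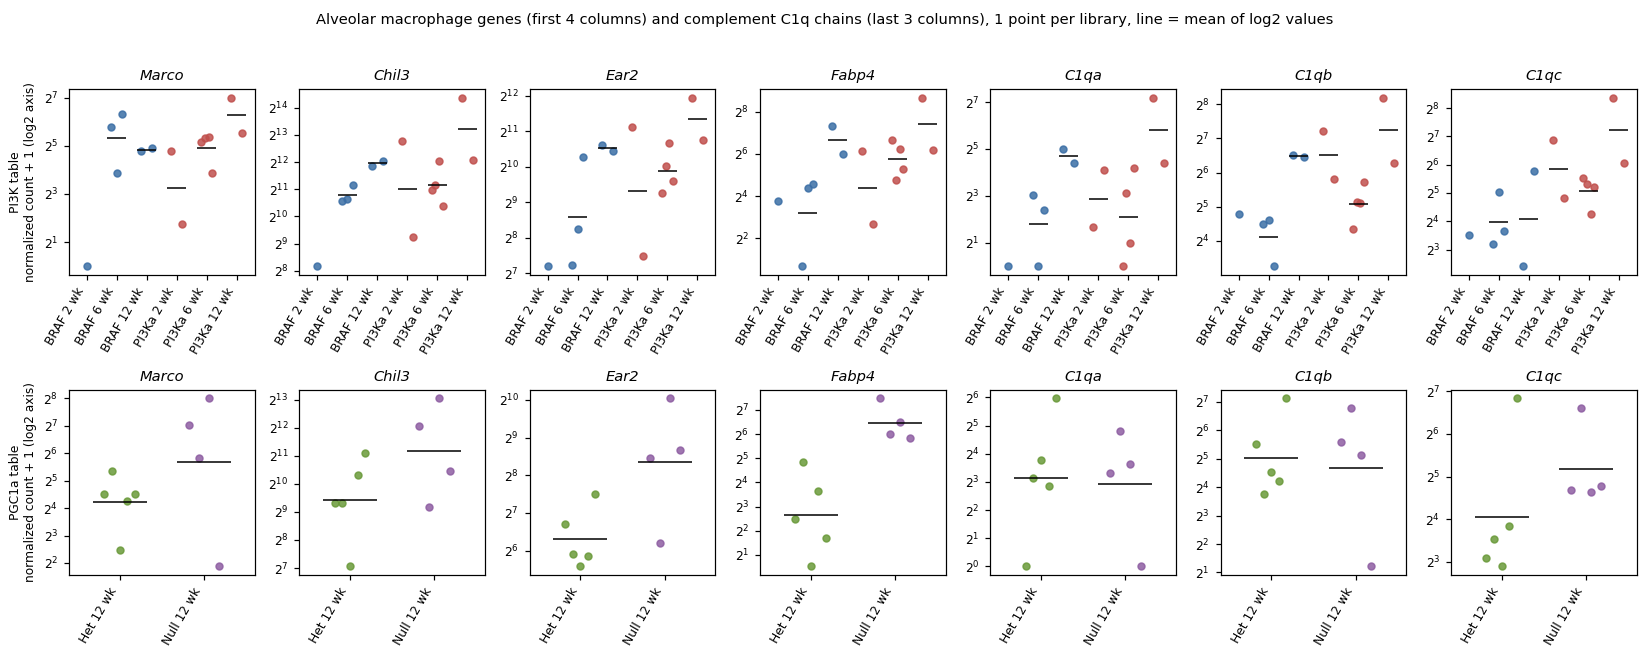
Normalized count + 1 (log2 axis) of Marco, Chil3, Ear2 and Fabp4 (first 4 columns) and C1qa, C1qb and C1qc (last 3 columns) by genotype and week, 1 point per library, with lines at the mean of the log2 values, in the PI3K table (top) and the PGC1a table (bottom). In the PI3K table BRAF/PI3Ka 12 week replicate 1 is the top point for all 7 genes, reaching 21059 for Chil3, and in the PGC1a table Fabp4 does not overlap between genotypes while the C1q chains do.

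Within single weeks the comparison rested on few libraries. At 2 weeks (2 BRAF/PI3Ka libraries and 1 BRAF library, whose spread is assumed to be that of the other groups), limma called 0 of the 32, where 0.0171% of all genes were called. Fold changes were above 0 for 27 of the 32 with a median of 1.21 (50.4% of all genes, median 0.01), and 5 were higher at an unadjusted p under 0.05 (6.93% of all genes). Of the 27 members with a mean of at least 10 in both groups, 4 were. At this week the BRAF library is labelled female and both BRAF/PI3Ka libraries male, and the 2 factors cannot be told apart there. With labelled sex as a factor, estimated over all weeks, the median was 0.34 with 18 above 0. That fit takes BRAF/PI3Ka 12 week replicates 1 and 2 by labels that their Kdm5d values went against. It therefore cannot tell the part of sex at 2 weeks. Between 1 (without BRAF/PI3Ka 2 week replicate 1) and 11 (without replicate 2) were under the unadjusted limit when single libraries were left out. The highest was Mrc1, the mannose receptor, at 63.2 in BRAF against 1549 and 420.4 in BRAF/PI3Ka. Both BRAF/PI3Ka values were above the BRAF value (log2 fold change 3.65, SE 0.80, limma adjusted p = 0.099). Without BRAF/PI3Ka 2 week replicate 2, which had the lower of the 2 Mrc1 values, 1 library is left against 1, so no test is given. These 2 BRAF/PI3Ka libraries also stood apart in other lineages: the summed normalized count of 12 endothelial genes was 185066 and 216824 against 18697 in the BRAF library, and that of 11 AT2 genes was 59598 and 118113 against 654922. The part of these other cells in the result was not tested.

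At 6 weeks (4 and 3 libraries), 0 of the 32 were called, where 0.0228% of all genes were called, and 2 were higher at an unadjusted p under 0.05 (2.24% of all genes). Fold changes were above 0 for 25 of the 32 with a median of 0.35 (50.5% of all genes, median 0.00). Without BRAF 6 week replicate 1 the median was 0.15, and without BRAF/PI3Ka 6 week replicate 1 or 3 none of the 32 was under the unadjusted limit. Every BRAF/PI3Ka library was above every BRAF library for 2 of the 32, Fabp4 and Clec4e, and for 2.63% of all genes, and below for 0 of the 32 (2.6% of all genes). Clec4e, the receptor Mincle, was 30.1, 13.1 and 20.8 in BRAF and 93.9, 80.1, 68.2 and 87.4 in BRAF/PI3Ka. The BRAF/PI3Ka values lay close together and well clear of the BRAF values (log2 fold changes 1.96 for Clec4e and 2.53 for Fabp4). Both were singled out for this separation, so it is a description. Mrc1, Mertk, Clec4e and Laptm5 are given with values because of their results and so were chosen after their values were seen.

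At 12 weeks (2 and 2 libraries), 0 of the 32 were called (0.0114% of all genes), 5 were higher at an unadjusted p under 0.05 (2.18% of all genes), and 29 were above 0 with a median of 1.00 (50.4% of all genes, median 0.01). This rested on 1 library. Replicate 1 of BRAF/PI3Ka was above replicate 2 for 32 of the 32 genes, with a median log2 difference of 2.22, and without it the median fold change was -0.083, with 14 of 31 tested above 0 and 1 under the unadjusted limit. Without replicate 2 instead, the median was 2.10 with 14 under the limit, and without BRAF 12 week replicate 1 none was under it. Replicate 1 was above both BRAF libraries of 12 weeks for 30 of the 32 genes, and replicate 2 was above both for 9, between them for 12 and below both for 11.

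That library held the highest value of the whole table for 25 of the 32 genes, where it did so for 9.55% of all 17558 genes. Its values were 9722 for Mpeg1 (perforin-2, a pore-forming protein of phagocytes), 7946 for Ctss, 7171 for Cybb (the catalytic oxidase subunit), 2378 for Fcer1g (the common Fc receptor gamma chain), 2169 for Clec4e and 453 for Fcgr1 (the high affinity IgG receptor). In replicate 2 the same genes were 2032, 934, 910.3, 293, 128 and 17.5. All 32 were higher in replicate 1, with median log2 differences of 1.87 for the alveolar genes, 2.29 for the C1q-type genes, 1.24 for the shared macrophage genes, 1.63 for the general leukocyte and myeloid genes, 2.91 for the Fc receptors and adaptors, 2.83 for the neutrophil genes and 2.98 for the oxidase subunits. The 7 genes whose highest value lay in another library were Mrc1, Csf1r, Mertk, Ptprc, Csf3r, S100a8 and S100a9.

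**Figure D2:**
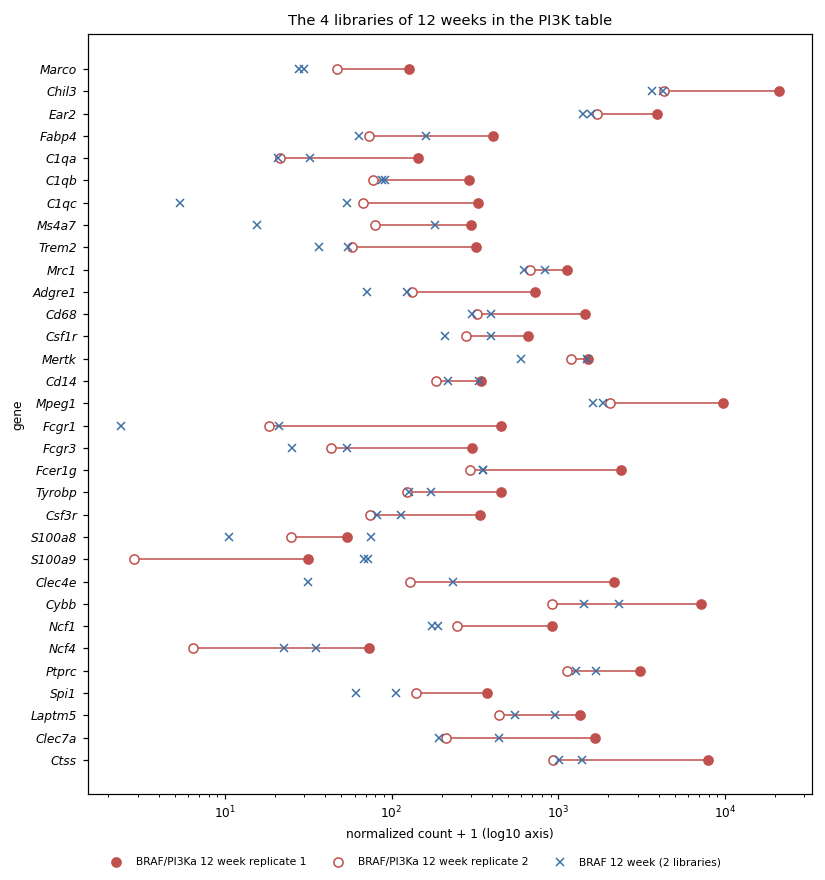
Normalized count + 1 (log10 axis) of the 32 genes in the 4 libraries of 12 weeks of the PI3K table: BRAF/PI3Ka replicate 1 (filled circles), BRAF/PI3Ka replicate 2 (open circles, joined to replicate 1 by a line) and the 2 BRAF libraries (crosses). Replicate 1 lies above replicate 2 for 32 of 32 genes and above both BRAF libraries for 30, and replicate 2 lies above both BRAF libraries for 9, between them for 12 and below both for 11.

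No difference of the genotype effect between weeks was called by limma for any of the 32 or any other gene (0 of 17558), where at an unadjusted p under 0.05 the share of all genes was 8.95% between 2 and 6 weeks, 2.87% between 6 and 12 weeks and 9.1% between 2 and 12 weeks. Of the 32, 4, 0 and 3 were under that unadjusted limit.

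The libraries of 12 and 6 weeks, which also differ in viral dose, were compared with genotype held fixed. This comparison (4 and 7 libraries) by limma gave 0 called genes among the 32 and among all 17558 (0%). The unadjusted count was 15 of the 32 higher and 0 lower at p under 0.05, where 2.3% of all genes were higher. Fold changes were above 0 for 29 of the 32, with a median of 1.24 (49.6% of all genes, median 0.00). Without C1qa, 14 of 31 were under the unadjusted limit and 28 of 31 above 0. The median was 1.68 for the 4 alveolar genes and 1.31 for the 5 C1q-type genes. C1qb had the lowest p (log2 fold change 2.27, SE 0.47, limma unadjusted p = 0.000258, adjusted p = 0.841). Its 4 values at 12 weeks, 76.7 to 290.4, were all above its 7 values at 6 weeks, 8.56 to 52.0.

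C1qa was 19.9 to 144 at 12 weeks against 0 to 17.4 at 6 weeks, and its ranges did not overlap either. The share of all genes separated between these weeks is not given, so the separation of C1qb and C1qa is a description. Its mean was 5.34 at 6 weeks and 53.8 at 12 weeks, so it passed the low-value filter only through 12 weeks, and through 1 library there, and its fold change of 3.36 is given with no test. Adgre1, which encodes the macrophage surface marker F4/80, was 45.8 in BRAF at 2 weeks, 7.48, 28.4 and 87.7 at 6 weeks, and 70.5 and 122 at 12 weeks. The BRAF/PI3Ka libraries gave 93.5 and 99.7 at 2 weeks, 14.2, 38.2, 81.7 and 59.3 at 6 weeks, and 723 and 132 at 12 weeks. Of the 12 week values 1, in BRAF, fell within the range of 6 weeks (log2 fold change 2.35). Chil3 (1.67), Ear2 (1.70) and Fabp4 (2.51) lay on the same side, and Marco had a fold change of 0.52.

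Without BRAF/PI3Ka 12 week replicate 1, 4 of the 31 tested were under the unadjusted limit, with medians of 0.61 for the 31, 1.38 for the alveolar genes and 0.70 for the other 4 C1q-type genes. C1qb (1.96) and Adgre1 (1.74) stayed above 1, and Marco was 0.14. Without both BRAF/PI3Ka libraries of 12 weeks, 6 were under the limit, with medians of 1.05, 1.81 and 0.71. Shares of all genes under the limit are not given for these fits. Of the other lineages, the 11 AT2 genes had a median fold change of 0.56 and the 12 endothelial genes one of -0.94, and 0 of the 11 and 0 of the 12 were under the unadjusted limit. Fibroblast genes had a median of -0.64 (1 higher and 2 lower of 10 under it), mast cell and basophil genes one of -1.23 (1 lower of 3), erythroid genes one of -0.83 (0 of 6 above 0, 0 under it) and dendritic cell genes one of 0.03 (1 lower of 11). Their part in the result was not tested.

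From 2 to 6 weeks, 0 of the 32 were called (0.0513% of all genes). At an unadjusted p under 0.05, 4 were higher (6.58% of all genes) and 2 lower (5.35%), and fold changes were above 0 for 22 with a median of 0.36 (51.4% of all genes, median 0.02). Without the members that missed a mean of 10 in either week, 3 of 29 were higher and 2 lower. In the same comparison AT2 genes were above 0 in 11 of 11 (median 1.64, 10 under the unadjusted limit), lymphocyte genes in 13 of 15 (median 1.14, 7 under it) and fibroblast genes in 1 of 10 (median -0.92, 2 under it), with 0 called. The summed AT2 count was 59598 to 654922 at 2 weeks and 233476 to 1124507 at 6 weeks. Their part in the values of the 32 was not tested. Marco had the highest fold change (3.00), given with no test since its mean at 2 weeks was 9.61. Csf1r, the receptor for the macrophage growth factors CSF1 and IL-34, was lowest. It was 879 in BRAF at 2 weeks, 272, 565 and 647 at 6 weeks, and 396 and 207 at 12 weeks. In BRAF/PI3Ka it was 998 and 1474 at 2 weeks, 892, 206, 453 and 249 at 6 weeks, and 657 and 278 at 12 weeks. The 3 libraries of 2 weeks lay in the upper part of the range in each genotype, and 1 BRAF/PI3Ka library of 6 weeks lay among them (log2 fold change of 6 against 2 weeks -1.39, unadjusted p = 0.0103).

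In the PGC1a table, at 12 weeks, 0 of the 32 and 0 of 17424 genes were called between BRAF/PGC1aNull and BRAF/PGC1aHet tumors (4 and 5 libraries, limma, 0%). At an unadjusted p under 0.05, 13 of the 32 were higher in BRAF/PGC1aNull and 0 lower, where 2.66% of all genes were higher. Fold changes were above 0 for 28 of the 32 with a median of 1.08 (51.1% of all genes, median 0.01). Without Fabp4 these were 12 and 27 of 31 with a median of 1.02. The unadjusted count was 8 without BRAF/PGC1aNull replicate 1 or 3. The 4 alveolar genes were all above 0 with a median of 1.90, and of the 5 C1q-type genes 2 were above 0, with a median of -0.21. The C1q-type median turned to 0.30 without BRAF/PGC1aHet replicate 5 (C1qa then untested), to 0.77 without BRAF/PGC1aNull replicate 4 and to 0.33 with the replicate number as a block (a fit in which BRAF/PGC1aHet replicate 5, with no partner, adds nothing), while the alveolar median was 2.25, 2.36 and 2.25. The difference between these groups of genes was not tested.

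Fabp4 was 4.55, 27.8, 0.436, 11.7 and 2.19 in BRAF/PGC1aHet and 179, 62.5, 89.1 and 56.6 in BRAF/PGC1aNull. Every BRAF/PGC1aNull library was at least at 56.6 and no BRAF/PGC1aHet library above 27.8. Its mean was 9.32 in BRAF/PGC1aHet and 96.7 in BRAF/PGC1aNull, so it passed the low-value filter only through BRAF/PGC1aNull, and its log2 fold change of 3.82 is given with no test. Endothelial cells also make Fabp4, and 12 of 12 endothelial genes had fold changes above 0 with a median of 2.21 (12 of 12 at an unadjusted p under 0.05, 0 called), their sum being 465 to 1378 in BRAF/PGC1aHet and 2148 to 3530 in BRAF/PGC1aNull. The part of endothelial RNA in the Fabp4 values was not tested.

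Ear2 was 103, 59.1, 46.8, 57.0 and 179 in BRAF/PGC1aHet and 348, 72.9, 1057 and 406 in BRAF/PGC1aNull. Of the BRAF/PGC1aNull values 3 were above every BRAF/PGC1aHet value and 1 was within their range (log2 fold change 2.03, SE 0.63, limma unadjusted p = 0.00652, adjusted p = 0.849). Ear1, which shares sequence with Ear2, was 6.84 to 38.5 in BRAF/PGC1aHet and 149, 32.8, 192 and 72.9 in BRAF/PGC1aNull, with the low value in the same library. Chil3 was 643, 642, 132, 1285 and 2171 in BRAF/PGC1aHet and 4281, 574, 8502 and 1412 in BRAF/PGC1aNull. The groups overlapped, with 2 BRAF/PGC1aNull libraries above the rest (log2 fold change 1.76, SE 0.81, limma unadjusted p = 0.0487). Marco was 22.1, 39.8, 4.60, 18.3 and 22.03 in BRAF/PGC1aHet and 130.2, 55.3, 256 and 2.67 in BRAF/PGC1aNull. Here 3 BRAF/PGC1aNull libraries were above the BRAF/PGC1aHet range and 1 was below it (log2 fold change 1.45, SE 1.02, limma unadjusted p = 0.179). Marco was 0.68 without BRAF/PGC1aNull replicate 3 and 2.72 without replicate 4, and Chil3 was 1.14 without replicate 3 and 1.17 without BRAF/PGC1aHet replicate 3.

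C1qa was 0, 7.91, 12.9, 6.19 and 62.0 in BRAF/PGC1aHet and 9.09, 26.9, 11.4 and 0 in BRAF/PGC1aNull. C1qb was 44.7, 12.5, 22.2, 17.7 and 139 in BRAF/PGC1aHet and 47.3, 110.2, 34.3 and 1.32 in BRAF/PGC1aNull. C1qc was 7.59, 10.6, 6.45, 13.4 and 113 in BRAF/PGC1aHet and 24.9, 96.2, 23.8 and 26.3 in BRAF/PGC1aNull. The groups overlapped for all 3, and the highest value of each lay in BRAF/PGC1aHet replicate 5. Log2 fold changes were -0.21 for C1qa (95% interval -2.84 to 2.42), -0.34 for C1qb (-2.50 to 1.81) and 1.13 for C1qc (-0.56 to 2.82). Each interval holds 0 and also differences of more than 1 log2 unit.

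Trem2 was 68.5, 50.1, 25.2, 36.1 and 457 in BRAF/PGC1aHet and 77.3, 23.9, 52.5 and 67.9 in BRAF/PGC1aNull. The groups overlapped, and the highest value again lay in BRAF/PGC1aHet replicate 5 (log2 fold change -0.42, 95% interval -1.94 to 1.11, the lowest of the 32). Without that library the fold changes of C1qb, C1qc and Trem2 were 0.18, 1.83 and 0.26. Without BRAF/PGC1aNull replicate 4, which had the lowest Marco and C1qb values of its table, that of C1qb was 0.81, and without replicate 2 those of C1qb, C1qc and Trem2 were -1.05, 0.66 and -0.065.

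**Figure D3:**
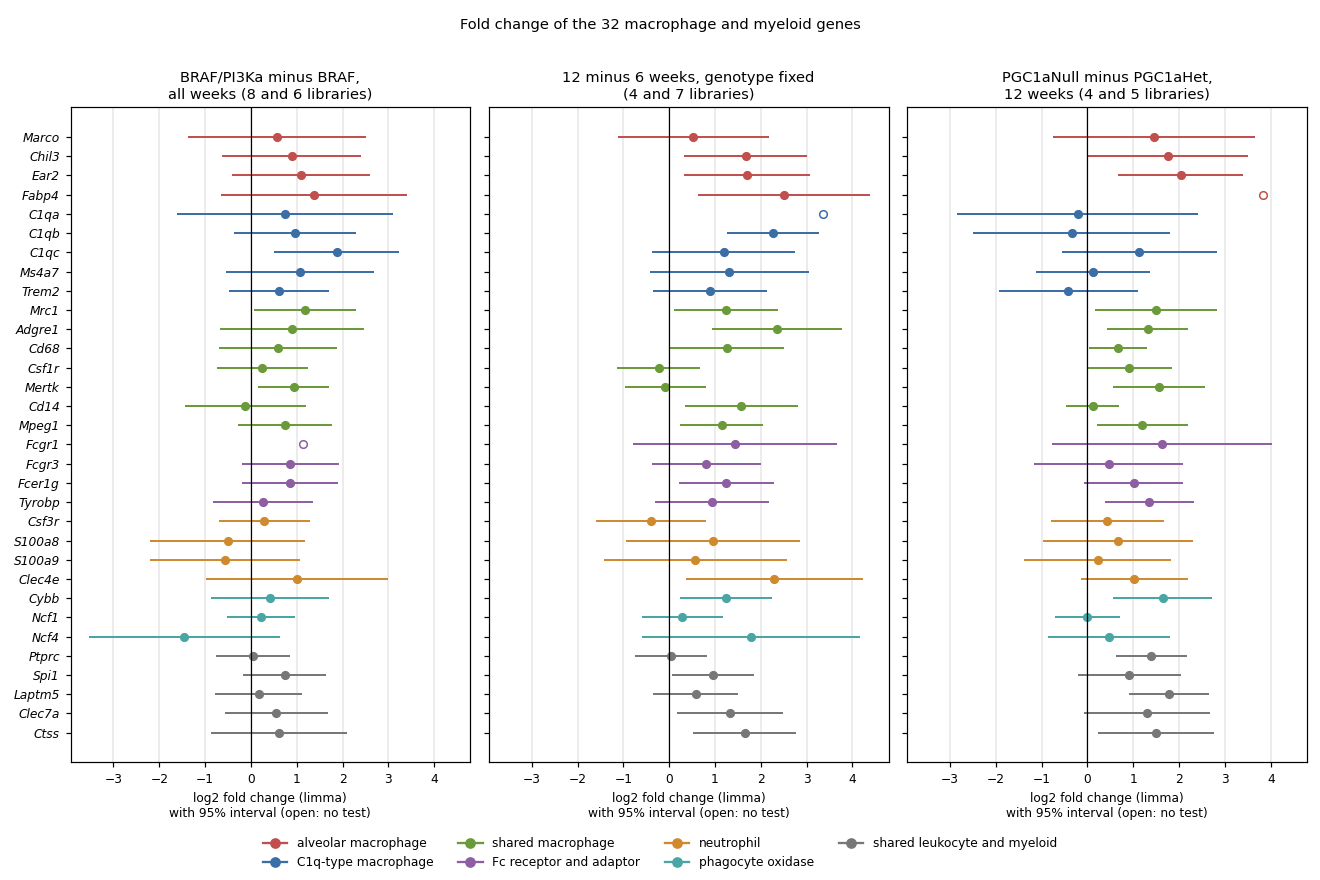
Log2 fold change with its 95% interval (limma) of the 32 genes for BRAF/PI3Ka minus BRAF over all weeks, 12 minus 6 weeks with genotype fixed, and PGC1aNull minus PGC1aHet, colored by group of genes, with an open point and no interval for Fcgr1, C1qa and Fabp4 in the comparison where they reached a mean of 10 in only 1 group. The points lie above 0 for 28, 29 and 28 of 32 genes, and in the PGC1a comparison the filled points of the other 3 alveolar genes lie above 0 while C1qa, C1qb and Trem2 lie below it.

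The 2 signals can be put side by side within libraries. The alveolar level (mean log2(normalized count + 1) of Marco, Chil3, Ear2 and Fabp4) was 5.65 ± 1.00 (SD, n = 5) in BRAF/PGC1aHet and 7.92 ± 1.37 (SD, n = 4) in BRAF/PGC1aNull, and the C1q level (mean of C1qa, C1qb and C1qc) was 4.08 ± 1.48 and 4.27 ± 1.68. By library the alveolar level was 5.76, 6.36, 3.91, 6.03 and 6.20 in BRAF/PGC1aHet and 8.76, 6.79, 9.40 and 6.71 in BRAF/PGC1aNull. The C1q levels ran from 2.87 to 6.65 and from 2.00 to 6.07 and overlapped. The alveolar levels did not overlap, and this rested on Fabp4. With Marco, Chil3 and Ear2 alone, an alternative chosen after seeing the data, the level was 6.66 ± 0.98 and 8.40 ± 1.66, and BRAF/PGC1aHet replicate 5 (7.70) was above 2 of the 4 BRAF/PGC1aNull libraries. The alveolar minus C1q difference was 1.57 ± 1.59 and 3.65 ± 1.97, and these ranges overlapped as well (-0.45 to 2.89 and 0.73 to 4.93).

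Across the PI3K table the alveolar level was 7.12 ± 1.51 (SD, n = 6) in BRAF and 8.10 ± 1.48 (SD, n = 8) in BRAF/PI3Ka, and the C1q level was 3.81 ± 1.07 and 5.00 ± 1.43. The means were higher in BRAF/PI3Ka by 0.98 and 1.19, less than the larger SD in each case, and by 0.64 and 0.77 without BRAF/PI3Ka 12 week replicate 1. The alveolar minus C1q difference was 3.31 ± 1.09 and 3.11 ± 1.48 (3.18 ± 1.58 without that library), so the balance of the 2 signals differed between these genotypes by less than the spread between libraries. By week the C1q level in BRAF was 2.77 at 2 weeks, 3.30 ± 0.25 at 6 weeks (n = 3) and 5.09 ± 0.63 at 12 weeks (n = 2), and in BRAF/PI3Ka 5.08 ± 0.24 (n = 2), 4.08 ± 0.84 (n = 4) and 6.75 ± 1.64 (n = 2). The alveolar level in BRAF was 4.78, 6.98 ± 1.02 and 8.50 ± 0.21, and in BRAF/PI3Ka 6.99 ± 2.41, 7.93 ± 0.53 and 9.56 ± 1.31. In both genotypes the group means of both levels were highest at 12 weeks, where BRAF/PI3Ka replicate 2 alone had 8.64 for the alveolar and 5.59 for the C1q level. At 2 weeks the BRAF/PI3Ka replicates were 8.70 and 5.29 for the alveolar level and 5.26 and 4.91 for the C1q level. The close C1q means hid single chains that differed, C1qb and C1qc being higher in replicate 1 and C1qa in replicate 2.

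**Figure D4:**
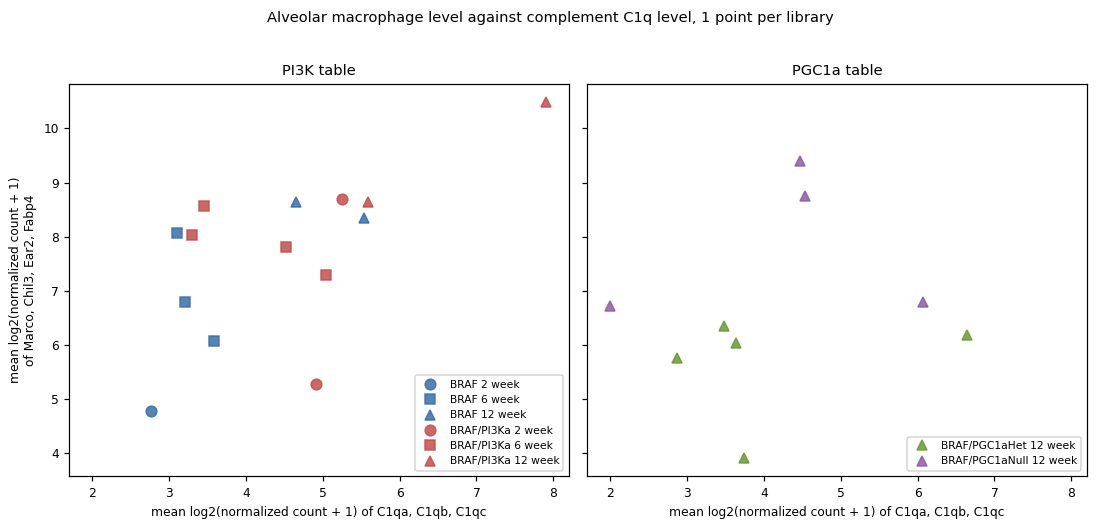
Alveolar level (mean log2(normalized count + 1) of Marco, Chil3, Ear2 and Fabp4) against C1q level (mean of C1qa, C1qb and C1qc), 1 point per library, for the PI3K table (left) and the PGC1a table (right). In the PGC1a table the 4 BRAF/PGC1aNull points lie above the 5 BRAF/PGC1aHet points on the vertical axis (6.71 to 9.40 against 3.91 to 6.36), a gap that closes when Fabp4 is left out of the mean, and are mixed with them on the horizontal axis, and in the PI3K table BRAF/PI3Ka 12 week replicate 1 is at the top right (10.49 and 7.91).

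As a description over 14 libraries, the median Pearson r among pairs of the 4 alveolar genes was 0.77 (0.71 without BRAF/PI3Ka 12 week replicate 1), among the C1q chains 0.63 (0.42) and between the alveolar genes and the C1q chains 0.51 (0.30). Over the 9 libraries of the PGC1a table these were 0.61, 0.58 and 0.17. The libraries share their factors and the groups differ, so these values carry no test. The genes of the 32 most like Chil3 over libraries were Mpeg1 (r = 0.94), Ctss (0.93) and Cd68 (0.93), a lysosomal glycoprotein of macrophages, in the PI3K table and Mrc1 (0.95), Ctss (0.94) and Cd68 (0.92) in the PGC1a table. Csf1r was least like it in the PI3K table (-0.21) but had r = 0.68 in the PGC1a table, and without BRAF/PI3Ka 12 week replicate 1 Ncf4 was least like it (-0.49, with -0.36 for Csf1r).

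Among the genes that macrophages share, Adgre1 was 44.9, 40.3, 13.997, 26.5 and 50.3 in BRAF/PGC1aHet and 85.1, 68.1, 81.0 and 94.1 in BRAF/PGC1aNull. All BRAF/PGC1aNull values were above all BRAF/PGC1aHet values (log2 fold change 1.32, limma adjusted p = 0.855). Csf1r was 159, 103, 51.1, 99.6 and 336 in BRAF/PGC1aHet and 266, 256, 203 and 212 in BRAF/PGC1aNull. The highest value lay in BRAF/PGC1aHet and the other 4 there were below every BRAF/PGC1aNull value (log2 fold change 0.91). All 7 genes of this group were above 0, with a median of 1.20, and 5 were under the unadjusted limit.

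Of the general leukocyte genes, Ptprc, which encodes CD45, was 371, 253, 131, 304 and 525 in BRAF/PGC1aHet and 776, 525, 746 and 1094 in BRAF/PGC1aNull. The groups did not overlap, though 1 value of each met at 525 to the nearest whole number (log2 fold change 1.40, limma unadjusted p = 0.00176, adjusted p = 0.577). Laptm5, a lysosomal membrane protein of blood cells, was 218, 300.3, 92.9, 261 and 454 in BRAF/PGC1aHet and 1110.0, 472, 1091 and 751 in BRAF/PGC1aNull. These groups were also apart (log2 fold change 1.78, SE 0.41, limma unadjusted p = 0.00075, adjusted p = 0.476). Every BRAF/PGC1aNull library was above every BRAF/PGC1aHet library for 4 of the 32 (Fabp4, Adgre1, Ptprc and Laptm5) and for 0.941% of all genes, and below for 0 of the 32 (0.459% of all genes). These genes are named for their separation, which is a description. By an exact permutation test over samples, 7 of the 31 members other than Fabp4 were under 0.05 unadjusted, where 4.05% of all genes were. Between BRAF/PI3Ka and BRAF, Ptprc was 494 in BRAF at 2 weeks, 1381, 1193 and 3717 at 6 weeks, and 1692 and 1276 at 12 weeks, and in BRAF/PI3Ka it was 847 and 1080.3, 1453, 978, 1992 and 1787, and 3105 and 1133. The genotypes overlapped throughout and the highest value was in BRAF (log2 fold change 0.05, and -0.11 without BRAF/PI3Ka 12 week replicate 1).

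The calcium-binding proteins of neutrophils, S100a8 and S100a9, reached at most 83.6 in any library. S100a8 was 14.3 in BRAF at 2 weeks, 34.2, 8.54 and 17.9 at 6 weeks, and 9.51 and 73.9 at 12 weeks, and in BRAF/PI3Ka it was 0 and 29.4, 11.9, 4.74, 31.3 and 18.6, and 53.1 and 23.9. In BRAF/PGC1aHet it was 30.4, 1.80, 11.2, 14.9 and 22.9, and in BRAF/PGC1aNull 11.4, 35.2, 39.0 and 10.2. Low and high values were mixed over all groups. S100a9 was 18.6 in BRAF at 2 weeks, 7.35, 6.45 and 50.6 at 6 weeks, and 66.9 and 71.5 at 12 weeks, and in BRAF/PI3Ka it was 21.1 and 37.3, 24.7, 2.88, 21.2 and 55.0, and 30.6 and 1.84. In BRAF/PGC1aHet it was 83.6, 4.48, 23.9, 37.1 and 55.0, and in BRAF/PGC1aNull 16.1, 53.9, 68.5 and 22.03. The genotypes overlapped in both tables (log2 fold changes -0.56 and 0.22). Median fold changes of the 4 neutrophil genes were -0.11 over all weeks, 0.76 for 12 against 6 weeks and 0.55 in the PGC1a comparison (-0.26 and 0.47 in the first 2 without BRAF/PI3Ka 12 week replicate 1). Of 15 other neutrophil genes, 7 of 11, 7 of 11 and 6 of 10 tested were above 0 in the same order, with medians of 0.18, 0.36 and 0.33 and 0 called. Their summed normalized count was 3374 to 16500 in BRAF, 1067 to 11140.2 in BRAF/PI3Ka, 4814 to 8711 in BRAF/PGC1aHet and 4386 to 9900.2 in BRAF/PGC1aNull. Hdc, which encodes histidine decarboxylase, alone made up 83.7% and 72.8% of that sum in the median library of the 2 tables. Ly6g, which defines mouse neutrophils, was listed at 0 in 12 of the 14 libraries of the PI3K table and reached 2.67 there, and was 0 to 16.3 in the PGC1a table.

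Of the oxidase genes, Ncf4, a cytosolic subunit, had the lowest fold change of the 32 between BRAF/PI3Ka and BRAF. It was 45.5 in BRAF at 2 weeks, 20.8, 0.763 and 24.3 at 6 weeks, and 34.3 and 21.5 at 12 weeks, and in BRAF/PI3Ka it was 0 and 11.7, 10.05, 2.26, 0 and 16.1, and 72.4 and 5.42. The lowest and the highest values were both in BRAF/PI3Ka, so the ranges overlapped (log2 fold change -1.46, SE 0.98, limma unadjusted p = 0.157). The highest, 72.4, was in BRAF/PI3Ka 12 week replicate 1. Without that library the BRAF/PI3Ka values were 0 to 16.1, and only the BRAF value of 0.763 lay within them. The fold change was then -1.95 (limma unadjusted p = 0.046). In the PGC1a table Ncf4 was 12.3, 11.1, 6.68, 8.98 and 19.997 in BRAF/PGC1aHet and 25.7, 21.1, 19.4 and 5.57 in BRAF/PGC1aNull, again with overlap. The Fc receptors and adaptors had medians of 0.86, 1.09 and 1.18 in the 3 comparisons (over all weeks, 12 against 6 weeks, PGC1a), and the general leukocyte and myeloid genes 0.55, 0.96 and 1.40. Without BRAF/PI3Ka 12 week replicate 1 the first 2 were 0.46 and 0.32 for the Fc receptors and adaptors and 0.13 and 0.55 for the general genes.

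Mertk, a receptor by which macrophages take up dying cells and which endothelial cells also make, was set beside the endothelial gene Pecam1 over libraries. In the PI3K table Mertk was 901, 431, 1586, 1193, 1494 and 599 in the 6 BRAF libraries and 2845, 3477, 3299, 1351, 1338, 949, 1503 and 1184 in the 8 BRAF/PI3Ka libraries, in order of week. The 3 highest values were the 2 BRAF/PI3Ka libraries of 2 weeks and 1 of 6 weeks, and these also had the 3 highest values of Pecam1 (11832, 11179 and 16965). As a description with no test, Pearson's r of Mertk with Pecam1 was 0.85 over 14 libraries and Spearman's rho 0.82, with r = 0.78 without the 2 libraries farthest from the median of Pecam1. In the PGC1a table r was 0.87 over 9 libraries and rho 0.82, with r = 0.74 without the 2 farthest. For deviations from the group means r was 0.90 and 0.71 in the 2 tables. Csf1r had r = 0.55 and 0.65 and rho 0.56 and 0.53 with Pecam1, and Mertk had r = 0.073 and 0.66 with Chil3. These pairs were chosen after the values were seen. Mertk had a log2 fold change of 0.93 over all weeks (limma unadjusted p = 0.0219, adjusted p = 0.657) and of 1.56 in the PGC1a comparison (adjusted p = 0.759).

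**Figure D5:**
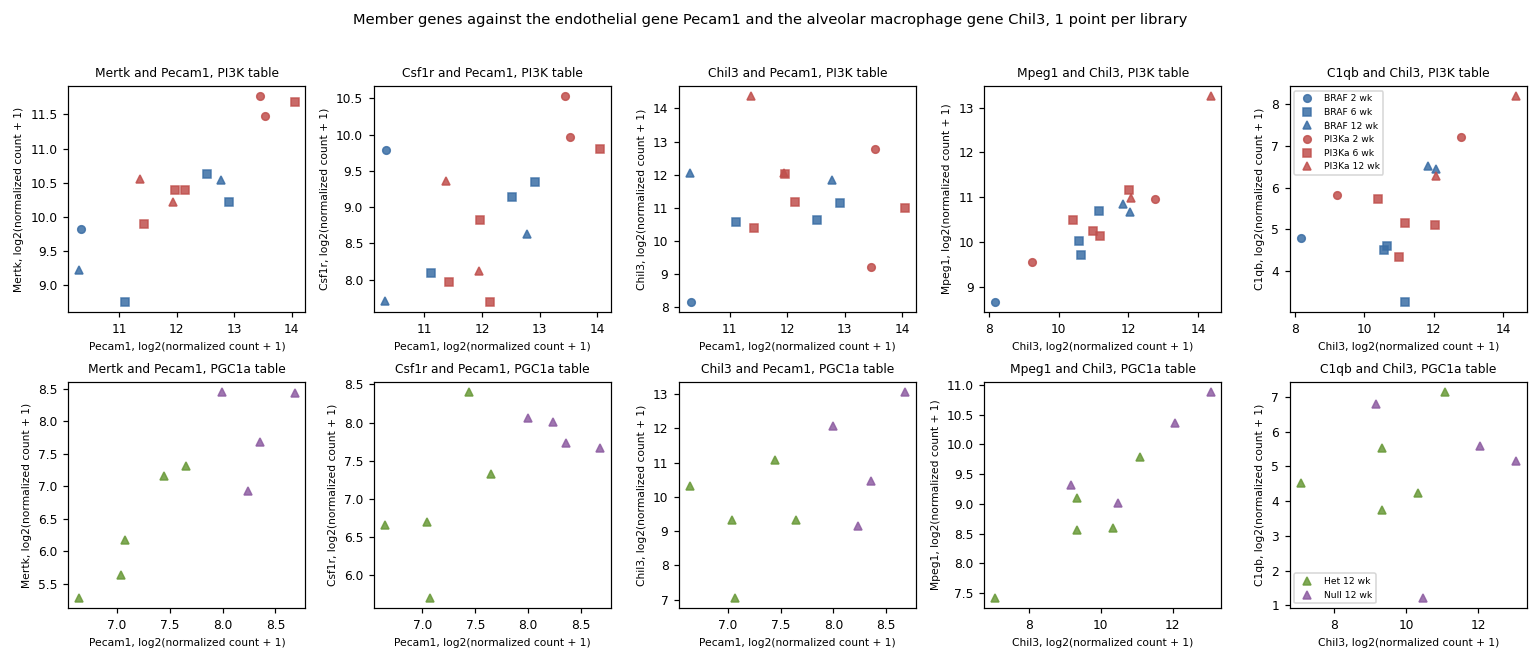
Log2(normalized count + 1) of Mertk, Csf1r and Chil3 against Pecam1 and of Mpeg1 and C1qb against Chil3, 1 point per library, for the PI3K table (top, 14 libraries) and the PGC1a table (bottom, 9 libraries). Mertk lies along a line with Pecam1 in both tables (r = 0.85 and 0.87) and Mpeg1 with Chil3 (0.94 and 0.92), while C1qb has r = 0.62 and 0.10 with Chil3.

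Genes of the same cells outside the 32 were counted in the same comparisons. Of other alveolar macrophage genes, 14 of 14 tested were above 0 over all weeks (median 0.95, 1 at an unadjusted p under 0.05), 12 of 14 between 12 and 6 weeks (median 0.92, 6 under it) and 15 of 15 in the PGC1a comparison (median 1.45, 9 under it). Siglecf, the surface lectin used to sort alveolar macrophages (listed under its other symbol, Siglec5), was 81.8, 37.1, 13.3, 17.1 and 75.1 in BRAF/PGC1aHet and 134, 154, 119.9 and 75.0 in BRAF/PGC1aNull. Of the BRAF/PGC1aNull values 3 were above the BRAF/PGC1aHet range and 1 was within it. Other interstitial macrophage genes had medians of 0.32, -0.23 and 0.37 in the same order (9, 5 and 11 of 14 tested above 0), where the C1q-type genes had 0.96, 1.31 and -0.21, the last of which turned above 0 with libraries left out or the block. The lists were not tested against each other. Folr2, which marks one such population, was 0 to 35.0 in the PI3K table and 3.51 to 15.8 in the PGC1a table.

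Of the other leukocytes, the median fold changes over all weeks, between 12 and 6 weeks and in the PGC1a comparison were -0.07, 0.59 and 0.71 for 12 monocyte genes and -0.45, 0.19 and 0.47 for lymphocyte genes (3 of 15, 9 of 15 and 12 of 13 tested above 0). No gene of these lists was called. For myeloid growth factors, chemoattractants and their other receptors, 8, 10 and 6 of 12 tested were above 0. In the 12 against 6 week comparison 4 of them were under the unadjusted limit, among them Csf2ra (1.76) and Csf2rb (1.41), the 2 chains of the GM-CSF receptor, and Cxcl2 (2.12), a neutrophil chemoattractant. No gene of this list was called. Of the ligands, Cx3cl1, the chemokine fractalkine, had a fold change of 1.33 over all weeks (limma unadjusted p = 0.0083, adjusted p = 0.51). At 2 weeks, where genotype and sex coincide, Csf2 was at -3.68 (limma unadjusted p = 0.0085, adjusted p = 0.205) and Cxcl1, a neutrophil chemoattractant, at -3.93 (limma unadjusted p = 0.0049, adjusted p = 0.173). The genotype effect on Csf2 differed by 5.42 between 12 and 2 weeks (limma unadjusted p = 0.0037, adjusted p = 0.41). Csf2, for GM-CSF, was 0.793 to 64.7 in the PI3K table and 16.001 to 72.4 in the PGC1a table, and Csf1 was 113 to 1090 and 21.9 to 139.

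No gene of the tumor cell and stromal lists was called. The 11 AT2 genes were below 0 in 11 of 11 over all weeks (median -0.87, 2 under the unadjusted limit) and in 11 of 11 in the PGC1a comparison (median -0.22, 0 under it), with summed normalized counts of 516261 to 651285 in BRAF/PGC1aHet and 396749 to 638472 in BRAF/PGC1aNull. Fibroblast genes were above 0 in 9 of 9 tested in the PGC1a comparison (median 1.26, 5 under the unadjusted limit), their sum being 140 to 471 in BRAF/PGC1aHet and 497 to 1977 in BRAF/PGC1aNull. The summed counts of the 4 alveolar genes were 184 to 2375 and 764 to 9905, overlapping between the genotypes where those of the endothelial and fibroblast genes did not. Their part in the values of the 32 genes was not tested.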

How the data were processed

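Normalized counts in 23 libraries of sorted tdTomato+ lung cells were used, from 2 deposited tables with 1 signal column per library. The signal values are counts that the authors estimated with Salmon on GRCm38, per the labels' processing notes, and normalized with DESeq2 within each table. The annotation and tool versions are not given in the sources used here. Sequencing ran for 50 cycles on RNA of an integrity above 6. Multiples of 1 read could not be recovered from the values, so no count test was run. Each library is 1 mouse. The authors' tables of fold changes and p-values were not used.

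Values were tested as log2(normalized count + 1) with limma 3.58.1 (trend, two-sided, R 4.3.3) for genes with a mean of at least 10, with Benjamini-Hochberg adjustment over all genes tested. The comparison over all weeks had no week term, and single weeks were compared by genotype and week means. Exact permutation tests were run in Python 3.11.15. Exon lengths and shared 31-base words came from GENCODE vM21, and promoters from RefSeq (GRCm38.p6). The alternatives were another pseudocount, filter and scaling, labelled sex as a factor, week as a factor over all weeks, the replicate number as a block, and each library left out.

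The members and lists were chosen with earlier results of these data known. Values in every library were given for the alveolar genes, the C1q chains, Csf1r, Adgre1, Ptprc, S100a8, S100a9 and the 2 genes with the highest and the lowest fold change over all weeks and in the PGC1a comparison.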

Additional observations from a re-analysis of the deposited data

Results flagged for a closer look

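Among 14 named genes, 70 sets of 4 to 8 libraries, some of them overlapping, were examined for 1 library far from the others, and 5 stood out, where chance gives about 1 in 20. Each value is the gap to the nearest library as a share of the range on the log2 scale. Marco was low in BRAF/PI3Ka 6 week replicate 4 (0.879) and Trem2 was high in the same library (0.917). Ncf4 was low in BRAF 6 week replicate 2 among all BRAF libraries (0.769). C1qc was high in BRAF/PGC1aHet replicate 5 (0.758) and in BRAF/PGC1aNull replicate 2 (0.929).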

How the results depend on the processing

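With 0 of the 32 called in each comparison, alternatives that also call 0 say nothing about stability. Over the alternatives the median of the 32 was 0.27 to 0.87 over all weeks, 0.15 to 0.54 at 6 weeks, 0.08 to 0.53 for 6 against 2 weeks, 0.61 to 1.62 for 12 against 6 weeks and 0.81 to 1.47 in the PGC1a comparison. The SD of the mean log2 value of the 32 within groups was 0.644 in the PI3K table and 0.706 in the PGC1a table. Among unadjusted counts, counts above 0 and calls over all genes, 103 alternatives lay beyond 1.5 times the value reported. With labelled sex as a factor the median at 2 weeks was 0.34, a fit that rests on 2 labels that Kdm5d went against. Without Fabp4 in the alveolar level, chosen after seeing the data, the change in the alveolar minus C1q difference was -0.34 in the PI3K table and 1.56 in the PGC1a table. With single libraries left out, the median at 12 weeks was -0.083 to 2.10. In the PGC1a comparison, Trem2 was -0.77 to 0.26 and C1qb -1.05 to 0.81 with single libraries left out. With the replicate number as a block they were 0.26 and 0.18, and BRAF/PGC1aHet replicate 5, which has no partner, then adds nothing. With single libraries left out, unadjusted counts of the 32 ranged from 1 to 5 over all weeks (9 with week as a factor), 1 to 11 at 2 weeks, 0 to 14 at 12 weeks, 4 to 17 for 12 against 6 weeks and 8 to 18 in the PGC1a comparison, and calls over all genes from 3 to 9 over all weeks, 0 to 268 at 2 weeks and 1 to 12 at 6 weeks.

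The replicate numbers did not pair the libraries (correlation of deviations -0.28, -0.03 and -0.01 at 6 weeks, -0.15 at 12 weeks, and 0.21, -0.21, 0.14 and -0.47 in the PGC1a table, with 0 of 6 and 2 of 8 libraries closest to their own number). With the block, 0 of the 32 were called in each comparison, calls over all genes were 3 over all weeks, 0 at 2 and 6 weeks and 2 at 12 weeks, and 19 of the 32 were under the unadjusted limit in the PGC1a comparison. Crossed numbers at 12 weeks, an alternative chosen after seeing the data, gave 0 of the 32 and the same counts over all genes. The cause of these shifts was not tested. Shares of all genes under the unadjusted limit are not given for the block or the other alternatives, so their unadjusted counts have no background. Depth in reads is unknown, which limits C1qa, Marco and Ncf4, listed at 0 in some libraries.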
